A study of Mus musculus with 8 samples.

Results

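The 7 genes described here belong to the fetal haematopoietic stem cell program: Lin28b, Hmga2, Igf2bp1, Igf2bp2, Igf2bp3, Sox17 and Arid3a. They were chosen by name, and every probe set that the platform annotation assigns to one of these symbols was taken, which gave 18 of the 45037 probe sets tested. Of the 7 genes, 6 had at least 1 probe set, while Igf2bp2 had 0 in the annotation used and was not analysed here. The arrays hold RNA of Lin-Sca+Kit+ cells, a fraction rich in haematopoietic stem cells, sorted from the fetal liver of C57/B6 mice. Each array carries the cells of 1 mouse. There were 2 wild-type (WT) arrays, 3 arrays from mice with 1 intact copy of ADAR1 (ADAR1 +/-, here heterozygous or HT) and 3 from mice with none (ADAR1 -/-, here null or KO). ADAR1 is an RNA-editing enzyme that turns adenosines of double-stranded RNA into inosines. WT and HT arrays together are called the 5 control arrays. For the fetal age, the design of the ADAR1 allele and the tissues that lost it, the sources used here give nothing.

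The program works as a chain of RNA-level switches. LIN28B, an RNA-binding protein of fetal and not adult blood stem cells, binds precursors of the let-7 microRNAs and blocks their maturation. Messenger RNAs that mature let-7 would silence are thereby kept, among them those of the chromatin protein HMGA2, of the insulin-like growth factor 2 messenger RNA-binding proteins IGF2BP1 to IGF2BP3 and of the DNA-binding protein ARID3A. SOX17 is a transcription factor that marks fetal and neonatal stem cells and sets them apart from adult ones. As development proceeds LIN28B falls, let-7 matures and the program closes.

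The let-7 sequences are shown because they define the link between LIN28B and the other genes. RefSeq (GRCm38.p6) lists 12 mature let-7 entries of the 5′ arm, and 11 of them share the seed GAGGUAG at bases 2 to 8. It is given in capitals in 4 members that differ outside it.
mmu-let-7a-5p: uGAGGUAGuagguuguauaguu
mmu-let-7d-5p: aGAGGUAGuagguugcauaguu
mmu-let-7g-5p: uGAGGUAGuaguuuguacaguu
mmu-let-7i-5p: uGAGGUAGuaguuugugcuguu
The precursors differ in the loop that LIN28 proteins are known to grip through the letters GGAG. Between the arms, 8 of the 10 mouse let-7 hairpins with both arms annotated hold these letters. Mirlet7g (chr9:106178840-106178927, plus strand) has them 1 time and Mirlet7b (chr15:85707319-85707403, plus strand) 0 times; capitals mark the seed and GGAG.
Mirlet7g: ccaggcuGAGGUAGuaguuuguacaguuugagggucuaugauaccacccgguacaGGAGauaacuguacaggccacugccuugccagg
Mirlet7b: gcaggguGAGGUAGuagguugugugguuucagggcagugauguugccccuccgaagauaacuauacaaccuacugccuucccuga
The levels of let-7 itself were not analysed here, so the members below are described without them.

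Levels are given as linear intensity, the deposited unit, with arrays in the order WT 1, WT 2, HT 1, HT 2, HT 3, KO 1, KO 2, KO 3; differences are in log2 units with the standard error of the limma fit. Background was set on each array by its brightest Bacillus control probe set of 27, and lay between 6.20 and 9.29 linear units. The share of probe sets above it was 45.6% to 61.2% on the controls, 40.0% on KO 1, 46.4% on KO 2 and 44.7% on KO 3. The Gapdh 3′ to 5′ ratio, which rises when labelled RNA is short, was 4.39 and 4.32 on the WT arrays, 5.78, 4.78 and 9.0 on the HT arrays and 7.45, 8.73 and 7.67 on the null arrays. It was thus higher on all null arrays than on any control but HT 3. The matching beta-actin ratio showed no such common shift. KO 1 (0.745) and KO 3 (0.713) exceeded every control, which ran from 0.645 to 0.703, while KO 2 (0.552) fell below them all. What part either ratio had in the results was not tested. Y-linked transcripts stood above background on HT 1, HT 3 and KO 1. Of the markers used for sorting, Kit read 9.33 to 23.5 linear units and was above background on all 8 arrays; Sca-1 (Ly6a) was not analysed here. Of 3 Adar probe sets, 1434268_at read 7.66 to 17.6 on the controls and 59.8, 144 and 176 on the null arrays, which was higher (3.22 ± 0.41, limma adjusted p = 0.0170; 0.0630 without HT 1 and 0.0610 without HT 3). The other 2 differed by 0.24 ± 0.40 and -0.16 ± 0.20 (limma adjusted p = 0.835 and 0.778). Since the sources do not place these probe sets against the deleted part of the gene, the Adar signal checks no label, and null means the arrays labelled so. Precision is limited throughout by having 2 or 3 arrays in a group.

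No member probe set passed the test between any groups. Of the 18 differences between null and control cells, 12 were below 0. Over all probe sets 44.8% were, and over those above background on at least 4 arrays, as 15 of the 18 are, 60.1% were. Between heterozygous and wild-type cells 16 of the 18 were below 0. This was so for 58.0% of all probe sets and 45.3% of those above background on at least 4 arrays. In null cells against all controls, 0 of 18 probe sets passed an adjusted p of 0.05 (limma, Benjamini-Hochberg over all probe sets), where 0.582% of all 45037 probe sets did. At an unadjusted p under 0.05, 4 of the 18 were lower and 0 higher; over all probe sets 6.66% were lower and 4.86% higher. The 4 were Hmga2 1446196_at and 1450781_at, Igf2bp1 1449210_at and Igf2bp3 1422610_s_at. The median difference of the 18 was -0.29, against 0.04 over all probe sets and -0.13 over the 22687 above background on at least 4 arrays. On 3 of the 18, all null arrays read below every control array, a pattern shown by 4.3% of all probe sets and by 7.83% of those above background on at least 4 arrays. In bulk RNA, fewer cells that express a gene and less of its RNA per cell cannot be told apart.

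**Figure D1:**
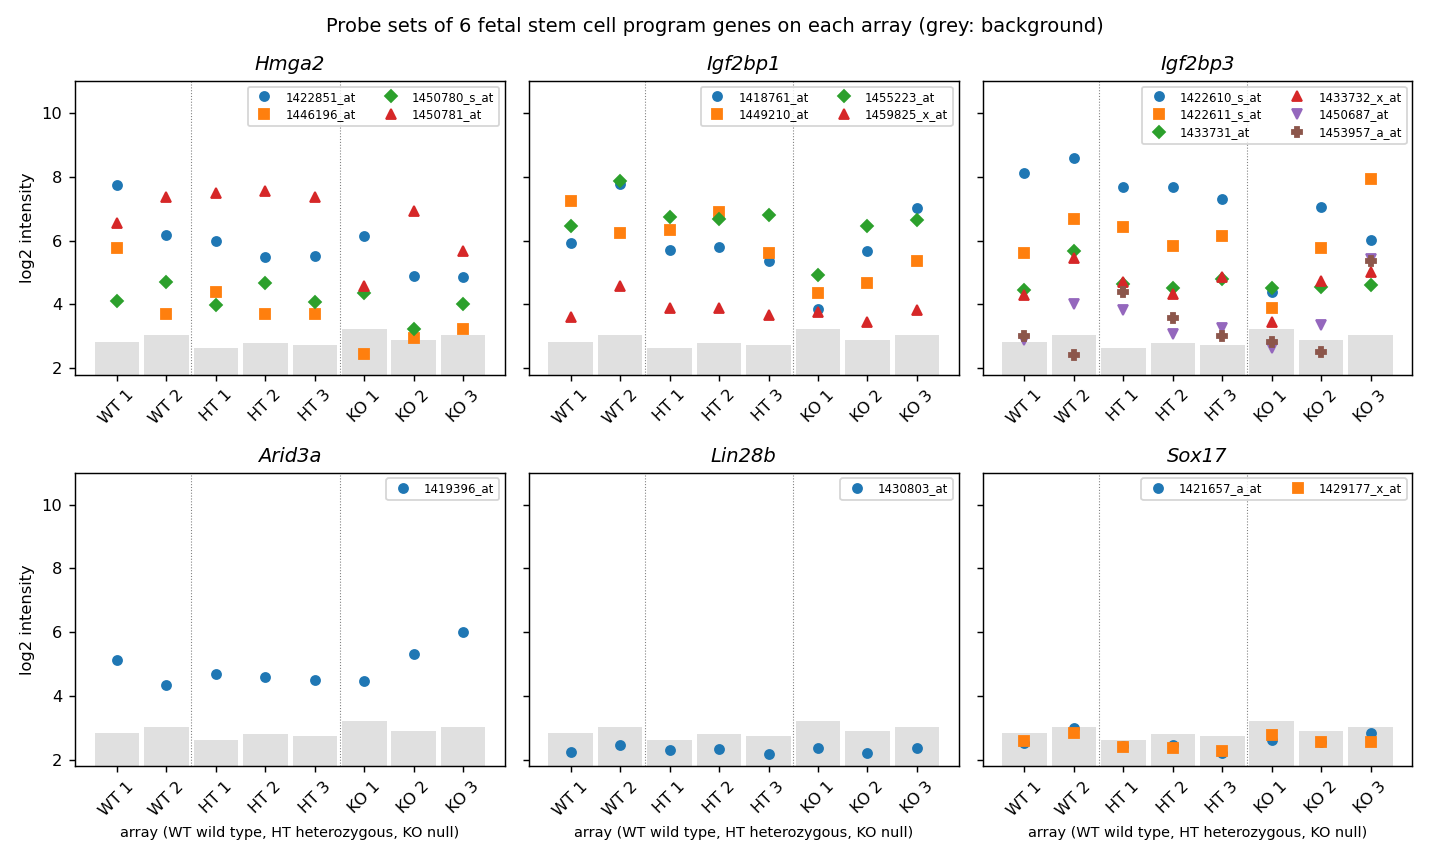
Log2 intensity (y axis) of each of the 18 probe sets on each of the 8 arrays (x axis), 1 panel per gene, with the array's background as a grey bar. Lin28b and Sox17 lie within the grey on all arrays, while on Igf2bp3 1422610_s_at, Igf2bp1 1449210_at and Hmga2 1446196_at the 3 null arrays lie below the 5 control arrays.

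Lin28b, the regulator at the head of the chain, was not detected. Its single probe set, 1430803_at, read 4.48 to 5.47 linear units over the 8 arrays and was above background on 0 of them, in wild-type and heterozygous as in null cells. No difference between groups can be read from it. Whether the probe set fails to report the transcript or the transcript was too low was not tested.

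Sox17 gave the same picture. Its probe sets 1421657_a_at and 1429177_x_at read 4.58 to 7.96 and 4.85 to 7.14 linear units, and each was above background on 0 of 8 arrays. The second was the only member probe set with an unadjusted p under 0.05 between heterozygous and wild-type cells, where it was lower on the HT arrays; since both groups lay under background, no fold is given. A list of SOX17 relatives and partners in arterial and blood-forming endothelium had 22 measured genes, and 0 passed the test between null and control cells (limma, Benjamini-Hochberg). At an unadjusted p under 0.05, 3 were higher and 2 lower, against 4.86% and 6.66% of all probe sets, with a list median of 0.07. Lmo2, an adaptor of the stem cell transcription factor complex, differed by -0.69 ± 0.16 (limma adjusted p = 0.149) and Kdr, a VEGF receptor, by 0.86 ± 0.21 (limma adjusted p = 0.171). Ctnnb1, which encodes beta-catenin, differed by -0.83 ± 0.29 (limma adjusted p = 0.338).

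Hmga2, an architectural chromatin protein that promotes self-renewal of fetal stem cells, was measured by 4 probe sets, and all 4 had a lower mean in null than in control cells. The brightest, 1450781_at, read 92.8 and 165 on the WT arrays, 182, 187 and 164 on the HT arrays and 23.8, 122 and 51.2 on the null arrays. Null and control arrays overlapped, because WT 1 lay below KO 2; the other null arrays were below all controls. The difference between null and all controls was -1.54 ± 0.50, a 2.90-fold lower mean (limma adjusted p = 0.309). Without KO 2 it was -2.14 and passed (limma adjusted p = 0.0494), and without KO 1 it shrank to -0.96 and did not pass. Over all probe sets, 499 passed as lower without KO 2, against 114 with all arrays.

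The dim Hmga2 probe set 1446196_at read 54.3 and 12.9 on the WT arrays, 21.1, 12.9 and 13.1 on the HT arrays and 5.49, 7.76 and 9.38 on the null arrays. All null arrays were below all control arrays, and KO 1 was under background. The difference was -1.37 ± 0.50 (limma adjusted p = 0.366). Probe set 1422851_at read 215, 72.2, 63.1, 44.4, 45.7, 70.8, 29.5 and 29.0 over the 8 arrays. Here WT 1 stood above all others and KO 1 lay among the controls; null minus controls was -0.88 ± 0.56 (limma adjusted p = 0.577), and -0.49 without WT 1. The last, 1450780_s_at, read 15.8 to 26.1 on the controls and 20.4, 9.45 and 16.1 on the null arrays, a difference of -0.44 ± 0.29 (limma adjusted p = 0.590) that was -0.68 without KO 1 and -0.13 without KO 2. Over the 8 arrays the 6 pairs of Hmga2 probe sets had Pearson correlations from -0.05 to 0.74, so the arrays that were low differed from one probe set to the next.

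Taken as 1 value per gene, the mean log2 intensity over its probe sets, Hmga2 was lower in null cells. The mean was an alternative to the main test that was followed further after seeing the data. This mean was 6.04 and 5.48 on the WT arrays, 5.47, 5.35 and 5.17 on the HT arrays and 4.38, 4.50 and 4.44 on the null arrays. Values of the null mice lay close together and below every control array, and both WT arrays lay above the HT arrays. This closeness belongs to the mean, whose null SD was 0.06, while on the single probe sets it was 0.39 to 1.18. KO 1 was the highest null array on 1422851_at and the lowest on 1450781_at, so the mean evened out probe sets that disagreed. Hmga2 fell by 1.06 ± 0.19 log2 units against all controls, 2.08-fold, and passed the test over 18193 gene means (limma adjusted p = 0.0404), as 0.764% of genes did in that direction. Against wild type alone the mean was lower by 2.49-fold (-1.32 ± 0.19, limma adjusted p = 0.0443), as for 0.165% of genes. Against heterozygous cells it differed by -0.88 ± 0.17 (limma adjusted p = 0.0855). The call against all controls held in 3 of 16 alternatives and the one against wild type in 2 of 16. Against all controls, leaving out any array other than WT 1 gave a limma adjusted p from 0.0555 to 0.111, and leaving out WT 1 gave 0.0247. It also missed the threshold after quantile normalization (limma adjusted p = 0.134), with a pseudocount of 32 (0.0920), with array weights (0.161), with sex as a covariate (0.0524) and without probe set 1450780_s_at (0.0839) or 1450781_at (0.274).

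**Figure D2:**
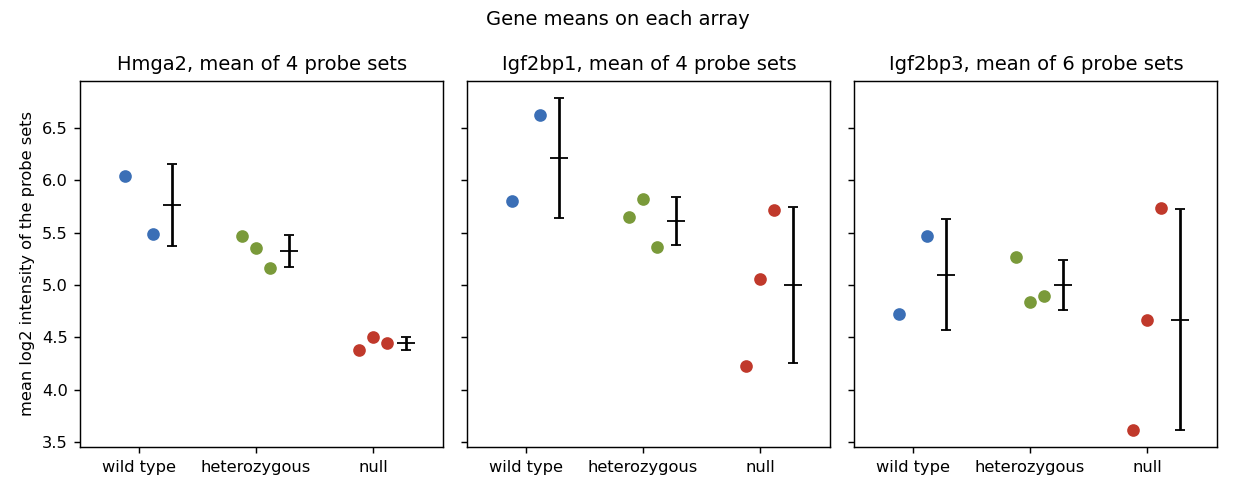
Mean log2 intensity over the probe sets of Hmga2, Igf2bp1 and Igf2bp3 (y axis) by group (x axis), with 1 point per array and the group mean with its SD to the right. The Hmga2 points of the null arrays, 4.38 to 4.50, lie below the lowest control array at 5.17, while the null arrays overlap the controls for Igf2bp1 and Igf2bp3.

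The Igf2bp genes encode RNA-binding proteins that hold fetal messenger RNAs, Igf2 among them, in stable and translated form. Of these genes Igf2bp3 had the most probe sets, 6, and they did not move together. Its brightest probe set, 1422610_s_at, read 277 and 386 on the WT arrays, 205, 203 and 158 on the HT arrays and 20.8, 133 and 65.0 on the null arrays. All null arrays were below all controls, and both WT arrays were above all HT arrays. The difference between null and all controls was -2.05 ± 0.57, a 4.15-fold lower mean (limma adjusted p = 0.236). It was the largest of the 18 with all arrays, but without KO 1 it shrank to -1.33, a 2.52-fold lower mean, and Igf2bp1 1449210_at was then the largest at -1.45.

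The second Igf2bp3 probe set, 1422611_s_at, read 48.7, 102, 85.2, 56.9 and 70.8 on the controls and 14.7, 54.7 and 246 on the null arrays. Its highest and its lowest array were thus both null. The difference was -0.27 ± 0.79 (limma adjusted p = 0.909). It was 0.73 without KO 1 and -1.31 without KO 3, and turned above 0 with a pseudocount of 32 (0.015) and after cyclic loess normalization (0.077).

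KO 3 was also the highest array on 2 dim Igf2bp3 probe sets. On 1450687_at it read 43.0 against 6.21 to 16.3 elsewhere, and on 1453957_a_at 41.3 against 5.29 to 21.0. The first was under background on KO 1. The second was above background on 5 of 8 arrays and, of the null arrays, only on KO 3, so its differences rest partly on readings under background. Null minus controls was 0.39 ± 0.60 and 0.29 ± 0.70 (limma adjusted p = 0.818 and 0.886), and without KO 3 it was -0.42 and -0.61. Probe set 1433731_at read 22.9 to 24.1 on the null arrays and 21.8 to 51.3 on the controls (-0.26 ± 0.28, limma adjusted p = 0.734), and was above 0 after quantile (0.063) and cyclic loess (0.069) normalization. Probe set 1433732_x_at read 10.9, 26.7 and 32.6 on the null arrays against 19.8 to 43.9 (-0.32 ± 0.41, limma adjusted p = 0.776), and 0.16 without KO 1. The 15 pairs of Igf2bp3 probe sets correlated from -0.34 to 0.90 over the 8 arrays. Averaged over its 6 probe sets, Igf2bp3 differed by -0.37 ± 0.43 (limma adjusted p = 0.715), by 0.16 without KO 1 and by -0.90 without KO 3.

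Igf2bp1 had lower null means on all 4 of its probe sets, with 1 free of overlap. Probe set 1449210_at read 152 and 76.2 on the WT arrays, 79.8, 120 and 49.0 on the HT arrays and 20.4, 25.6 and 40.9 on the null arrays. All null arrays were below all controls. The difference was -1.67 ± 0.39, a 3.19-fold lower mean, with the smallest p of the 18 (limma adjusted p = 0.156), and lay between -1.95 and -1.45 with any 1 array left out. Against wild type alone it was -1.95 ± 0.49 and against heterozygous cells -1.48 ± 0.44 (limma adjusted p = 0.314 and 0.307).

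The brightest Igf2bp1 probe set, 1455223_at, read 87.6, 232, 106, 102 and 110 on the controls and 30.3, 86.9 and 99.1 on the null arrays. WT 2 stood far above and KO 1 far below the rest, and the remaining 6 arrays lay between 86.9 and 110. The difference was -0.90 ± 0.46 (limma adjusted p = 0.501), and -0.36 without KO 1. On 1418761_at the 2 extremes were again WT 2 (221) and KO 1 (14.6), while KO 3 read 130; the difference was -0.59 ± 0.78 (limma adjusted p = 0.785), and it was 0.24 without KO 1, -0.17 without WT 2 and -1.34 without KO 3. Probe set 1459825_x_at read 10.8 to 14.3 on the null and 12.1 to 24.0 on the control arrays (-0.25 ± 0.23, limma adjusted p = 0.704), with -0.083 without WT 2 and -0.13 without KO 2. The mean over the 4 probe sets differed by -0.85 ± 0.37 (limma adjusted p = 0.365), and by -0.47 without KO 1.

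Arid3a, a DNA-binding protein that directs fetal-type B cell production downstream of LIN28B, was the one detected gene whose value leaned upward in null cells. Its probe set 1419396_at read 34.8 and 20.4 on the WT arrays, 25.9, 24.0 and 22.5 on the HT arrays and 22.2, 39.4 and 64.5 on the null arrays. KO 2 and KO 3 were the highest of the 8, but KO 1 lay among the controls, so the groups overlapped. The difference was 0.61 ± 0.34, with a 95% interval from -0.16 to 1.39 (limma adjusted p = 0.526). It was 0.24 without KO 3 and 1.01 without KO 1.

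**Figure D3:**
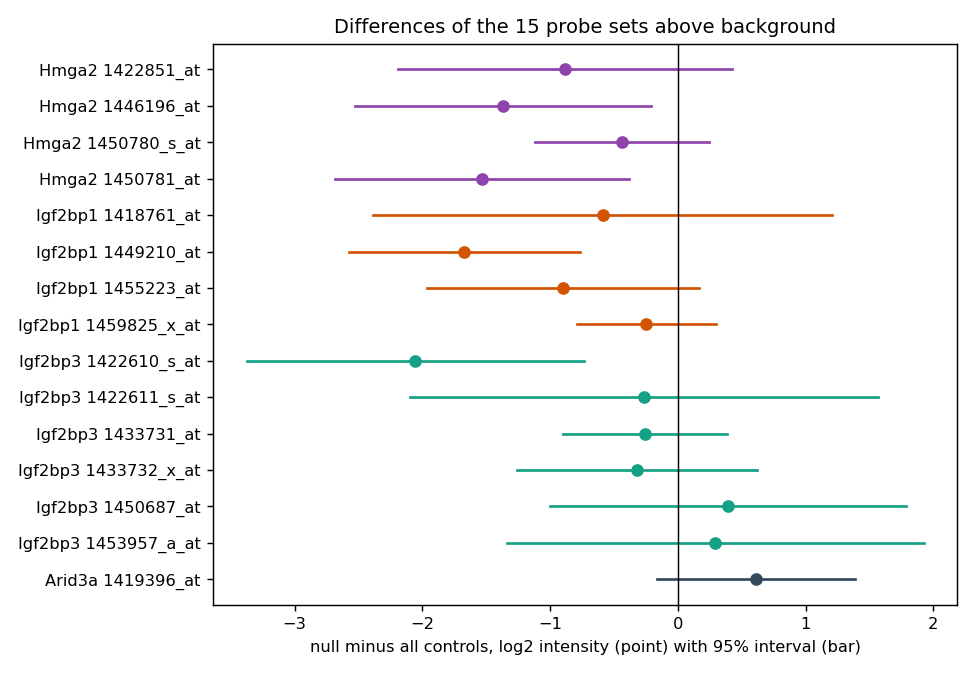
Null minus all controls in log2 intensity (x axis) for the 15 member probe sets above background on at least 4 arrays (y axis), with the limma estimate as a point and its 95% interval as a bar. The intervals of Hmga2 1446196_at and 1450781_at, Igf2bp1 1449210_at and Igf2bp3 1422610_s_at lie below 0, and the other 11 cross it.

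One array carried much of the low end. Among the 15 probe sets above background on at least 4 arrays, KO 1 was the lowest array on 9, whereas it was the lowest on 24.1% of all such probe sets. WT 2 was the highest array on 7 of the 15, against 15.8% of all such probe sets. KO 1 also had the smallest share of probe sets above background, and its part in these results was not tested beyond leaving it out. Against the median of all such probe sets, which was itself -0.13, the differences were -1.92 for Igf2bp3 1422610_s_at, -1.54 for Igf2bp1 1449210_at, -1.40 for Hmga2 1450781_at and -1.24 for Hmga2 1446196_at. That median was -0.04 after quantile normalization and 0.0032 after cyclic loess normalization. Of the 15, which come from 4 genes, 12 were below 0 as deposited, 11 after quantile and 9 after cyclic loess normalization. As deposited, 60.1% of all probe sets above background on at least 4 arrays were below 0. Against heterozygous cells alone, 13 of the 15 were below 0 as deposited, as were 60.1% of all such probe sets. Only 7 of the 15 were after quantile and 6 after cyclic loess normalization. The medians of the 15 were -0.26 as deposited, 0.0012 after quantile and 0.062 after cyclic loess normalization. Those of all such probe sets were -0.16, -0.04 and 0.017. Between heterozygous and wild-type cells 13 of the 15 were below 0 under each of these scalings, with medians of -0.28, -0.42 and -0.44. Of all such probe sets, 45.3% were below 0 as deposited, and their medians were 0.06, 0.012 and -0.011 in the same order. Their share below 0 after normalization was not taken. The count of lower values of null against heterozygous cells thus depended on the scaling, and that of heterozygous against wild-type cells did not. The latter rests on 2 WT arrays, neither with Y-linked transcripts above background, while HT 1 and HT 3 had them. With sex as a covariate some of its differences turned above 0, among them Igf2bp1 1449210_at (0.065) and Arid3a (0.24).

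Split by control group, the picture varied. Against wild type, 0 of 18 passed (0.326% of all probe sets did, limma), and at an unadjusted p under 0.05, 4 were lower and 0 higher, against 5% and 2.63% of all. The 4 were Hmga2 1422851_at (-1.67 ± 0.57) and 1446196_at (-1.85 ± 0.60), Igf2bp1 1449210_at and Igf2bp3 1422610_s_at (-2.54 ± 0.70). Both Hmga2 values hung on WT 1: without it they were -0.88 and -0.81, and without WT 2 -2.45 and -2.88. Against heterozygous cells, 0 of 18 passed (0.502% of all did), and 3 were lower and 0 higher unadjusted, against 6.81% and 4.52% of all. These were Hmga2 1450781_at (-1.74 ± 0.57), Igf2bp1 1449210_at and Igf2bp3 1422610_s_at (-1.73 ± 0.62), which was -1.01 without KO 1. Both comparisons use the same null arrays.

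Loss of 1 ADAR1 copy gave no call among the members. Between heterozygous and wild-type cells 0 of 18 passed (limma), as against 0.00222% of all probe sets, while unadjusted 1 was lower, the Sox17 probe set named above, and 0 higher, against 2.78% and 2.59% of all. Hmga2 1422851_at differed by -1.31 ± 0.57 (limma adjusted p = 0.891); all HT arrays were below both WT arrays, and the difference was -0.52 without WT 1 and -2.09 without WT 2. Igf2bp3 1422610_s_at differed by -0.80 ± 0.70 and Hmga2 1450781_at by 0.52 ± 0.64 (limma adjusted p = 0.916 and 0.936); the latter was 0.10 without WT 1 and 0.94 without WT 2. The 95% interval of the Igf2bp3 difference ran from -2.47 to 0.86, so with 2 WT arrays changes of either sign within it could not be told from none.

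The upstream sequence is shown for Hmga2 and Igf2bp3, the measured genes above background that the RefSeq promoter table (GRCm38.p6) holds; it lists 4 of the 7 members. Each run is the 250 bases before the transcription start, read on the gene's strand, and capitals mark matches on either strand to the E-box CACGTG, the box named for its letters CCAAT, the GC box GGGCGG, the TATA box TATAAA or the interferon response core, which is GAAA repeated after any 2 bases.
Hmga2, chr10:120476470-120476719, minus strand: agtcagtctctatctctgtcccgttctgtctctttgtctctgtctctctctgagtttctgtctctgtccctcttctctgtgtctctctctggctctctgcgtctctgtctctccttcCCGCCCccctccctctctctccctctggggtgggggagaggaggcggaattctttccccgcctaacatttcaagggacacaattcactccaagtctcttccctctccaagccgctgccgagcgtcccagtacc
Igf2bp3, chr6:49214955-49215204, minus strand: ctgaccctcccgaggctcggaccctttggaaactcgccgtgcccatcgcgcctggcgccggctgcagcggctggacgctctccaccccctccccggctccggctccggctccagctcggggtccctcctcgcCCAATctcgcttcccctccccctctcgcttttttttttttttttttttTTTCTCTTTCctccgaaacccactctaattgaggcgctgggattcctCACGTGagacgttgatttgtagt
Hmga2 holds 1 GC box, on the other strand at -133, and none of the rest. Igf2bp3 holds a CCAAT at -118, an E-box at -23 and, on the other strand at -70, a match to the interferon response core that runs on from a stretch of T. Over 32851 promoters of the same length, 32.7% hold a GC box, 33.8% CCAAT, 6.02% the E-box, 12.4% TATAAA and 2.98% the interferon response core. A match is a description of letters and not a site of binding.

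The machinery around let-7 was measured on a list of biogenesis, uridylation and silencing factors. Of all probe sets, 0.582% passed between null and control cells (limma), and unadjusted 6.66% were lower and 4.86% higher. Their median difference was 0.04, and -0.13 over those above background on at least 4 arrays. Of 21 listed genes that are no members, 0 passed between null and control cells (limma), unadjusted 3 were lower and 0 higher, and the median was -0.27. The 3 were Ago1, an Argonaute of the silencing complex (-1.35 ± 0.29, limma adjusted p = 0.119), and the RNA helicases Ddx17 (-1.28 ± 0.33, adjusted p = 0.194) and Ddx5 (-0.44 ± 0.16, adjusted p = 0.378). Ago1 read 150 to 214 linear units on the controls and 69.7, 115 and 44.0 on the null arrays, without overlap. Without KO 2 it passed (limma adjusted p = 0.0189), as did E2f6 (0.0218) and Lmo2 (0.0482) of the other lists, while Khdrbs1 passed without WT 2 (0.0454). These genes were all lower in null cells. Over all probe sets, 114 passed as lower with all arrays, 499 without KO 2 and 143 without WT 2.

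Other messenger RNAs known as let-7 targets went both ways. Of 30 measured, 0 passed (limma), and the median was 0.06. Unadjusted 2 were higher and 4 lower, against 4.86% and 6.66% of all probe sets. E2f6, a repressor of the E2F family, read 68.2 to 152 on the controls and 15.2, 40.7 and 19.4 on the null arrays (-1.96 ± 0.37, limma adjusted p = 0.0873). Rrm2, a ribonucleotide reductase subunit, differed by -1.85 ± 0.44 and Mdm4, an inhibitor of p53, by 0.97 ± 0.30 (limma adjusted p = 0.161 and 0.287).

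Among messenger RNAs bound by IGF2BP proteins and their partners, 0 of 16 passed (limma), 0 were higher and 2 lower unadjusted, and the median was -0.33. Of all probe sets, 4.86% were higher and 6.66% lower unadjusted. The adhesion receptor Cd44 differed by -1.10 ± 0.27 and the RNA-binding protein Syncrip by -0.68 ± 0.29 (limma adjusted p = 0.175 and 0.431). Igf2, the growth factor after which the family is named, read 22.1, 21.5, 87.1, 57.8 and 35.5 on the controls and 9.89, 38.6 and 6.61 on the null arrays, with overlap through KO 2 (-1.50 ± 0.68, limma adjusted p = 0.457); KO 3 was under background. Of 24 genes of the Igf2 and insulin-like growth factor axis, 0 passed, 2 were higher and 1 lower unadjusted, and the median was -0.13. The adaptors Gab2 and Irs2 differed by 1.07 ± 0.35 and 0.68 ± 0.26 (limma adjusted p = 0.315 and 0.388). The 1 lower gene, the cell cycle inhibitor Cdkn1c, was above background on 0 of 3 null and 3 of 5 control arrays, so no fold is given (limma adjusted p = 0.428).

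A list of relatives of the members and of other nucleic acid-binding proteins showed 0 of 10 past the threshold (limma). Unadjusted, 0 were higher and 3 lower, against 4.86% and 6.66% of all probe sets, with a median of -0.20. The 3 were Fubp1 (-0.83 ± 0.21), Khdrbs1 (-0.90 ± 0.34) and Syncrip, with limma adjusted p from 0.184 to 0.431. They are among the other proteins and not of the members' own families. Of 21 fetal B and erythroid genes under ARID3A or LIN28B, 0 passed, 1 was higher and 0 lower unadjusted, and the median was 0.06. The higher one, Rag1, a recombinase of lymphoid cells, was above background on 2 of 3 null and 0 of 5 control arrays, so no exact fold is given (limma adjusted p = 0.399). The surrogate light chain gene Igll1 differed by 0.37 ± 0.17 and the receptor Tek by 0.79 ± 0.38 (limma adjusted p = 0.455 and 0.479).

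On the list of regulators that differ between fetal and adult stem cells, 1 of 29 genes passed, as a higher one, where 0.329% of all probe sets did and 0.253% passed as lower. Egr1, an immediate-early transcription factor that restrains cycling of adult stem cells, read 11.7, 13.4, 10.7, 27.3 and 7.83 on the controls and 178, 198 and 69.2 on the null arrays. It rose by 3.38 ± 0.47 log2 units without overlap (limma adjusted p = 0.0265). The call held without HT 2, KO 2 or KO 3, and leaving out any other array gave a limma adjusted p from 0.0628 to 0.0884. At an unadjusted p under 0.05, 1 gene of the list was higher and 3 were lower, against 4.86% and 6.66% of all probe sets. The list median was -0.08.

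Summed levels of hepatocyte and of macrophage genes were lower on all null arrays than on any control, and those of the other cell types overlapped. Their part in the members' values was not tested. Single genes went both ways in null minus controls. Of the hepatocyte genes 12 were below and 5 above 0 (median -0.14), and of the macrophage genes 13 were below and 5 above (median -0.36). Of the endothelial and stromal genes 15 were above and 2 below 0 (median 0.13). Over all probe sets 44.8% were below 0, and over those above background on at least 4 arrays 60.1% were. The summed level of 17 hepatocyte and hepatoblast genes was 309 to 689 linear units on WT, 685 to 1202 on HT and 125 to 158 on null arrays, and the null arrays had 4 to 6 of the 17 above background. Afp, the fetal serum protein of hepatoblasts, read 75.9, 321, 617, 623 and 319 on the controls and 22.9, 4.79 and 6.75 on the null arrays and was above background on 1 of the 3 null arrays. With readings under background raised to it, the null mean differed by -4.81 log2 units, a bound on the size of the change (limma adjusted p = 0.0403 for the values as read). The summed level of 18 macrophage genes was 458 to 1233 on WT, 524 to 711 on HT and 157 to 286 on null arrays, and Lyz2 differed by -2.54 ± 0.34 (limma adjusted p = 0.0207). The 17 erythroid genes summed to 2923 to 3709, 3752 to 6211 and 1576 to 3869, and the 17 endothelial and stromal genes to 756 to 1152, 872 to 1069 and 877 to 1683. The 20 stem and progenitor genes summed to 3079 to 3226 on WT, 3470 to 3554 on HT and 2569 to 3489 on null arrays. Of them 10 were above and 10 below 0 in null minus controls, with a median of 0.04. The myeloid factor Spi1 of this list rose by 1.60 ± 0.25 (limma adjusted p = 0.0474). With each array left out in turn, the call of Afp held in 2 of 8 fits, that of Lyz2 in 4 and that of Spi1 in 1, with a highest limma adjusted p of 0.122, 0.0733 and 0.138. The 10 megakaryocyte genes summed to 9920 to 10467, 10239 to 11628 and 11110 to 11783. The 11 lymphoid progenitor genes lay near background, with sums of 72.1 to 92.6 over all arrays.

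**Figure D4:**
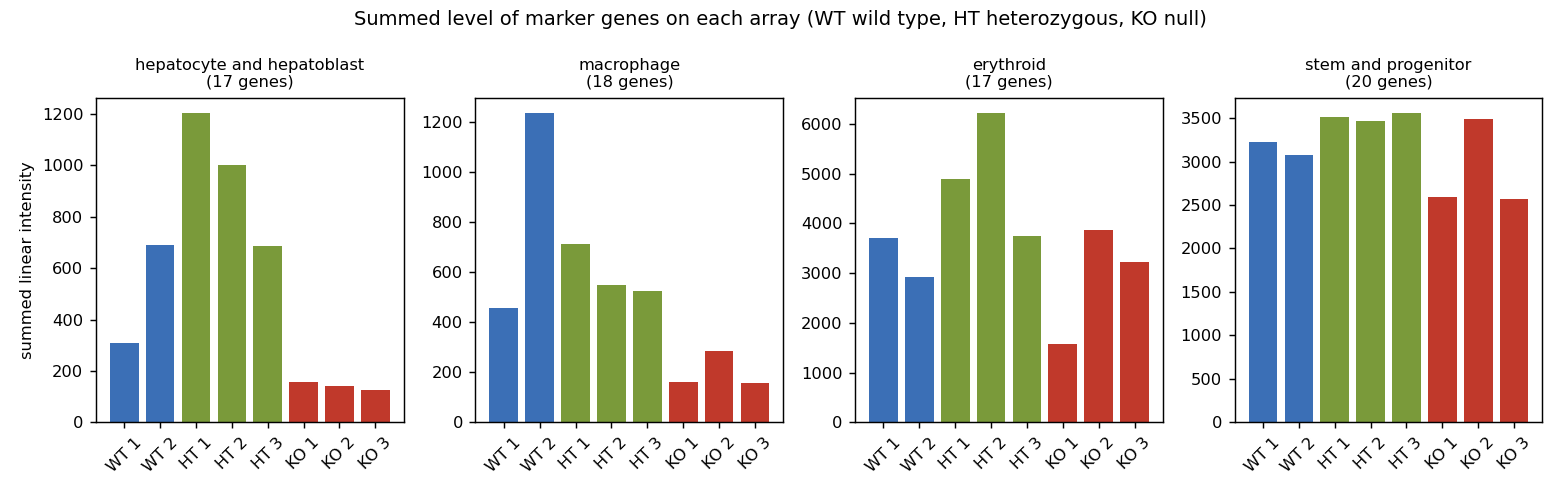
Summed linear intensity (y axis) of the marker genes of 4 cell types on each array (x axis), coloured by group. The null arrays are below all control arrays for hepatocyte and hepatoblast genes (125 to 158) and for macrophage genes (157 to 286), and overlap the controls for erythroid and for stem and progenitor genes.

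The genes whose pattern over the 8 arrays was most like that of a member were sought among the brightest probe sets of 10973 genes above background. For Hmga2 1450781_at they were Minpp1, Slc44a1 and Ctdnep1, with Pearson correlations of 0.99, 0.99 and 0.98. For Igf2bp3 1422610_s_at they were Polr2j, Fads1 and Fth1 (0.99, 0.99 and 0.98), and for Igf2bp1 1455223_at Cenpc1, Phf20 and H2ax (0.99, 0.97 and 0.97). For Arid3a they were Ddias, Klk1b7-ps and Itch (0.99, 0.98 and 0.96). These are the highest of many values over 8 arrays of the same strain and sort, and are given as a description.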

How the data were processed

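Messenger RNA was measured on 8 Affymetrix arrays of sorted fetal liver stem cells, 1 mouse per array, in 3 groups of 2, 3 and 3. The deposited values are linear intensities per probe set, made by the authors with RMA per the submitters' processing notes, which name no software or version. Their distributions differ between arrays, and what was done to bring the arrays to 1 scale is not known. The upper quartile in log2 units was 3.98 on KO 1, 4.40 on KO 2 and 4.01 on KO 3. On the controls it ran from 4.20 on WT 2 to 4.51 on HT 1. RNA was labelled with an amplification kit per the labels. All per-sample columns were used (0 left over). Scanner files were not analysed here.

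The deposited intensities were put on the log2 scale. Of 45101 probe sets 64 controls were left out. The platform annotation, which can be old, gave 34945 probe sets 1 gene, 932 several and 9160 none, and 34741 symbols were updated through the gene number; probe sets with several genes were not named. A gene on a list was represented by its brightest probe set. A 3-group model (limma 3.58.1 in R 4.3.3, with 5 residual degrees of freedom) gave the comparisons among groups and a 2-group model (6 residual degrees of freedom) null against all controls. Two-sided p-values were adjusted with the Benjamini-Hochberg method across the 45037 probe sets tested, at a threshold of 0.05. Errors of differences are limma standard errors. Replicates were numbered in order of deposit. They are separate mice, and with 2 or 3 per group an exact permutation test against a single group cannot go below 0.1.

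The members and all lists were chosen with earlier results of these data known. Named from each list were the genes past the threshold, or otherwise up to 3 of smallest p in null minus all controls, and for each detected member the 3 genes with the highest correlation. Means over the probe sets of a gene were listed at the outset as another unit of testing; the variations tried on them, and the leaving out of arrays for genes of the lists, were chosen after seeing the data. The fit was tested on simulated data.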

Additional observations from a re-analysis of the deposited data

Results flagged for a closer look

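Dixon's criterion at 95% (gap over range above 0.71) was applied to the 5 control arrays in 18 sets of values. These were the 15 member probe sets above background on at least 4 arrays and the gene means of Hmga2, Igf2bp1 and Igf2bp3. In 4 of the 18 sets 1 array stood far from the others. Chance alone marks about 1 in 20 independent sets (5%), but these sets share arrays and probe sets. On Hmga2 1450781_at, WT 1 was low at a log2 intensity of 6.54, with the next array at 7.36. WT 2 was high in the other 3: at 7.78 on Igf2bp1 1418761_at (next 5.92), at 7.86 on Igf2bp1 1455223_at (next 6.79) and at 5.68 on Igf2bp3 1433731_at (next 4.80).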

How the results depend on the processing

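In null minus wild type, 147 probe sets passed, which became 62 with a pseudocount of 32, 90 with array weights, 4 with only the groups compared in the fit and 79 with a sex covariate, and 65 (without HT 1) to 340 (without WT 1) with 1 array left out. In null minus heterozygous, 226 became 126 with the pseudocount, 130 with trend and robust variance and 105 with the sex covariate, and 63 (without HT 1) to 581 (without KO 2) with an array left out. Heterozygous minus wild type had 1, against 5 with the pseudocount, 0 with the filter at the median level, either 1 value per gene, the groups compared alone or the sex covariate, and 0 to 164 (without WT 1) with an array left out. Null minus all controls, 262, ranged from 156 (without HT 1) to 792 (without KO 2). Its split of 148 higher and 114 lower was 180 and 66 after quantile and 200 and 54 after cyclic loess normalization; against heterozygous 118 and 108 became 133 and 58, and 143 and 43, and against wild type 99 and 48 became 120 and 31 with cyclic loess. Leaving out 1 array turned some of these splits to mostly lower: 293 higher and 499 lower without KO 2 for null minus all controls, 183 and 398 without KO 2 against heterozygous, and 103 and 237 without WT 1 and 58 and 131 without WT 2 against wild type.

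Among members, these differences changed sign, none of them past the threshold before or after. Null minus heterozygous on Hmga2 1422851_at was 0.0012 after quantile and 0.062 after cyclic loess normalization. Null minus controls was 0.015 (pseudocount) and 0.077 (cyclic loess) on Igf2bp3 1422611_s_at, 0.063 (quantile) and 0.069 (cyclic loess) on 1433731_at, and 0.0026 (cyclic loess) on 1433732_x_at. Heterozygous minus wild type was -0.43 for the Hmga2 mean in place of 1450781_at; with the sex covariate it was 0.065 on Igf2bp1 1449210_at, 0.077 on 1455223_at, 0.24 on Arid3a and 0.34 for the Igf2bp3 mean.

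With 1 array left out, null minus controls ranged from -1.34 to 0.24 on Igf2bp1 1418761_at, -1.31 to 0.73 on Igf2bp3 1422611_s_at, -0.63 to 0.16 on 1433732_x_at, -0.42 to 0.97 on 1450687_at and -0.61 to 0.82 on 1453957_a_at. For the Igf2bp3 mean it ranged from -0.90 to 0.16, against wild type from -0.96 to 0.10 and against heterozygous from -0.86 to 0.20. Heterozygous minus wild type ranged from -1.83 to 0.24 on Hmga2 1446196_at, -0.96 to 0.028 on Igf2bp1 1449210_at, -1.13 to 0.27 on 1455223_at, -0.53 to 0.24 on Arid3a and -0.47 to 0.27 for the Igf2bp3 mean. The cause of these changes was not tested. No paired analysis was possible because the labels give the groups no shared replicate numbers. Lin28b and Sox17 lay under background on all 8 arrays, so signal over background limits what can be said of them.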
